A study of Homo sapiens with 18 samples.

Results

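Transcript levels of 50 genes of the lysosome were followed in senescent and non-senescent human fibroblasts treated with inhibitors of N-myristoylation. The genes were taken by symbol from a table of 28266 gene rows, and all 50 were among the 14341 genes abundant enough to test, ATP6V0D2 through the senescent groups alone. They comprised 26 hydrolases and their cofactors (9 proteases, 9 glycosidases, 4 sulfatases and 4 proteins of lipid breakdown), 5 membrane proteins, 16 subunits or accessory proteins of the proton pump (V-ATPase) and the 3 transcription factors TFEB, TFE3 and MITF.

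The cells were IMR90, a line of human lung fibroblasts, carrying ER:RAS, a RAS protein fused to a hormone-binding domain that 4-hydroxytamoxifen (4OHT) switches on. Every group carried ER:RAS, introduced from the vector pLNC-ER:RAS-neo. Control cells received the solvent DMSO and senescent cells 100 nM 4OHT. After 7 days both were given DMSO, IMP1088 at 300 nM or DDD86481 at 1.5 µM, and all were collected 3 days later, at day 10. IMP1088 and DDD86481 inhibit N-myristoyltransferases (NMT), which attach the lipid myristate to proteins. The 6 groups held 3 libraries each. Columns of the DDD86481 groups in the count table carry the name PCLX001, which the labels of the same samples list beside the treatment DDD86481, and the treatment label was followed. No group received 4OHT without ER:RAS, so effects of 4OHT itself and of RAS activation cannot be told apart, and senescence below means the 4OHT group against the DMSO group.

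Lysosomes break down proteins, sugars, sulfated chains and lipids with hydrolases that work in acid. The V-ATPase supplies that acid: its V1 sector in the cytosol burns ATP and drives protons through the V0 sector in the membrane. Many lysosomal genes carry an E-box element in their promoters that TFEB, TFE3 and MITF can bind, and a larger lysosomal compartment with raised β-galactosidase (the product of GLB1) is a known mark of senescent cells.

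Promoter letters are shown for members whose windows hold the core of that element, since the members holding it are described as a group further on. The 7 letters TCACGTG were searched on both strands in RefSeq windows reaching from 250 bases before to 50 bases after each transcription start (GRCh38.p14), and a site read on both strands was counted once. Windows were matched for 33 of the 50 members, and 11 of the 33 (33.3%) held a match, against 3.71% of all 35116 windows and 5.44% of the 18292 genes of the count table with a window. For the 6 letters CACGTG, which the longer word contains, the shares were 36.4% of members, 7.26% of windows and 10.2% of those 18292 genes. The 11 members were LAMP1, MCOLN1, CTSA, CTSD, CTSF, GAA, NEU1, ARSB, ATP6V0B, ATP6V0D1 and ATP6V1G1. A match is a description of the letters and no evidence of binding. The stretches below are written 5′ to 3′ along the gene, with matches (on either strand) in capitals. LAMP1 (chr13:113297030-113297119, plus strand) and MCOLN1 (chr19:7522566-7522623, plus) are membrane proteins, CTSD (chr11:1763952-1763991, minus), NEU1 (chr6:31862925-31862964, minus) and GAA (chr17:80101488-80101527, plus) are hydrolases, and ATP6V0B (chr1:43974886-43974943, plus) and ATP6V0D1 (chr16:67481194-67481233, minus) are pump subunits.
LAMP1: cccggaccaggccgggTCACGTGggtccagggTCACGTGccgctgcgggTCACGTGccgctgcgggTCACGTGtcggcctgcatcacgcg
MCOLN1: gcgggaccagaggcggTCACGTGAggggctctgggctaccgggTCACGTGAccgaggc
CTSD: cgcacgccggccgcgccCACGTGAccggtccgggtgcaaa
NEU1: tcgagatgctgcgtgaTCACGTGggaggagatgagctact
GAA: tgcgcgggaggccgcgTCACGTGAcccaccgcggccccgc
ATP6V0B: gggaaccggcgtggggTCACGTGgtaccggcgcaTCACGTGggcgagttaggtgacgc
ATP6V0D1: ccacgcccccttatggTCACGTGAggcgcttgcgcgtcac

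**Figure D1:**
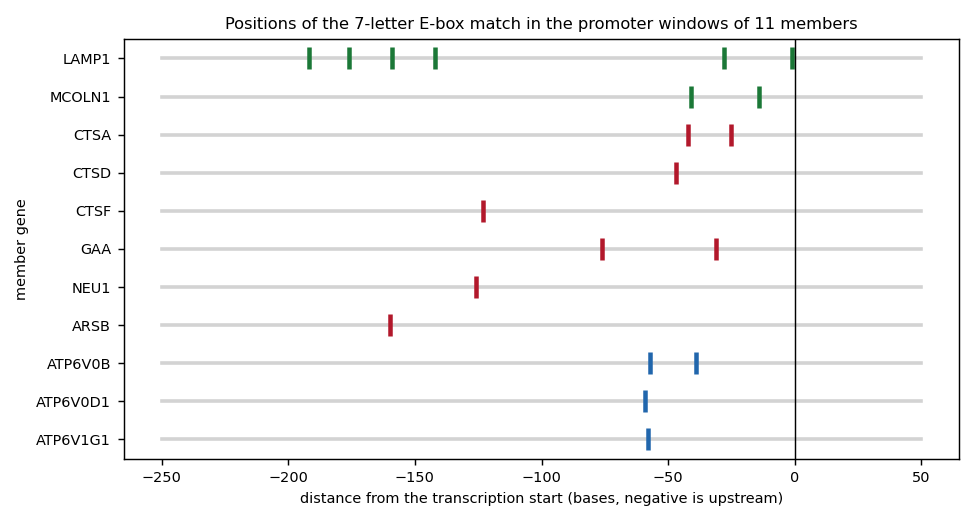
Positions of the 7-letter match (ticks) in the promoter windows of the 11 members that hold it, in bases from the transcription start, with the window drawn as a grey bar. LAMP1 holds 6 matches, 4 of them in the stretch printed above, and the other members hold 1 or 2.

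Libraries held between 16143716 and 23189950 counts, and values below are in CPM, a count scaled by its library's size. The table gives read counts without molecular identifiers, so counting floors, set at 3 counts per library, cover counting error only. Control DMSO replicate 3 stood furthest from its group, with pump subunits summing to 1835 CPM in the highest control DMSO library against 1521 CPM in the lowest. Leaving it out gave 40 called members for senescence and 31 for IMP1088 in control cells, where all libraries gave 41 and 28. The labels only number the replicates, whereas the study describes its replicates of these treatments as independent experiments, and p-values measure the spread between these libraries. All 10 fibroblast markers examined were above the floor in every group. DCN averaged 3042 CPM in control and 7.73 CPM in senescent DMSO cells and LUM 314 and 8.39 CPM. COL1A1, COL1A2, COL3A1, PDGFRB and THY1 also averaged lower in senescent DMSO cells. VIM (5035 ± 432 and 11681 ± 374 CPM), COL6A3 (2797 ± 1175 and 3895 ± 667) and FN1 (5781 ± 2733 and 7572 ± 1086) averaged higher there (SD, n = 3). The 5 endothelial markers summed to between 1.21 and 1.89 CPM in control DMSO and between 24.8 and 34.1 CPM in senescent DMSO, most of it CLDN5 (0.10 and 19.5 CPM). Of 10 markers of leukocytes and osteoclasts, 5 were above the floor in control DMSO (summed 17.1 to 21.7 CPM) and 6 in senescent DMSO (summed 150 to 180 CPM), where ITGAM, LYZ, OCSTAMP and CD3E stayed at or under it. Most of that sum was CD68, itself a lysosomal membrane protein, at 17.5 CPM in control and 132 CPM in senescent DMSO cells. In bulk RNA, a change in the number of cells of a kind and a change in RNA per cell cannot be told apart.

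By level per kilobase of transcript, CD63, a tetraspanin of late endosomes, came first in control DMSO cells at 1062 ± 259 CPM per kilobase (SD, n = 3), ahead of PSAP, the precursor of the saposins that help degrade sphingolipids, at 430 ± 25.0. The cysteine protease CTSB followed in control DMSO cells, at 400 ± 7.56 CPM per kilobase. In senescent DMSO cells CTSB came first at 1324 ± 36.5, ahead of CD63 at 1175 ± 96.1 and PSAP at 912 ± 4.27. The lowest level in control DMSO cells was that of ATP6V0D2, a V0 subunit best known from osteoclasts, at 0.024 ± 0.026 CPM per kilobase. Together the 50 members summed to 8462 ± 431 CPM in control and 16233 ± 281 CPM in senescent DMSO cells (SD, n = 3 each). Hydrolases made up most of this difference, with 4714 ± 81.1 CPM in control and 10834 ± 195 CPM in senescent DMSO cells. CTSB and PSAP weighed heavily in it. CTSB averaged 1495 CPM in control and 4943 CPM in senescent DMSO cells, and PSAP 1181 and 2506 CPM. The pump summed to 1636 ± 173 and 3036 ± 80.4 CPM, and the membrane proteins to 1924 ± 182 and 2133 ± 61.9 CPM.

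**Figure D2:**
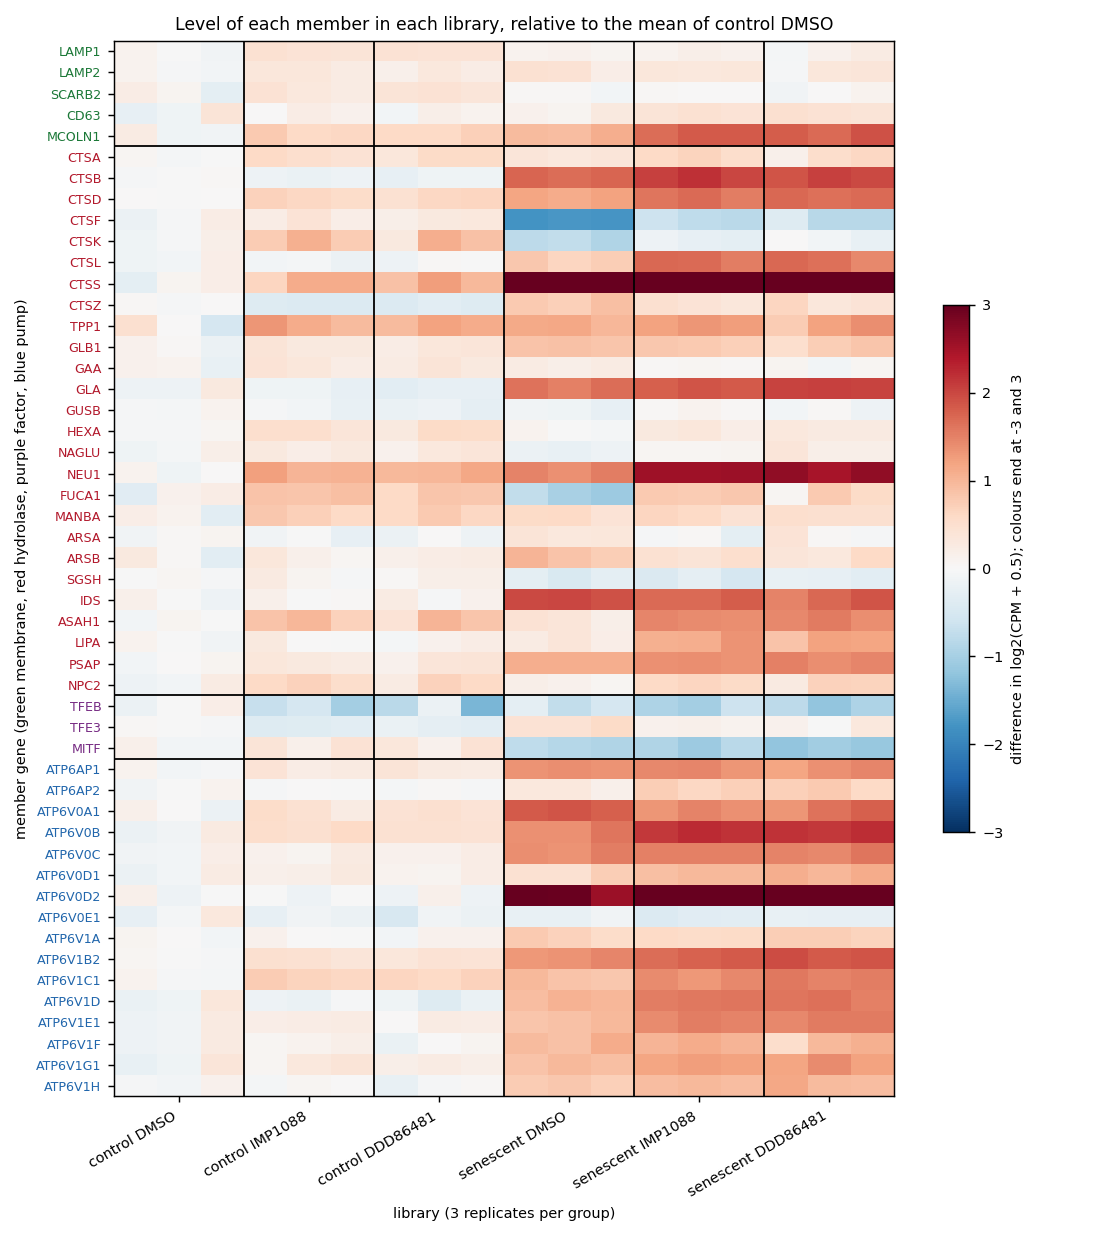
Level of each member (rows, in the order membrane proteins, hydrolases, factors, pump) in each of the 18 libraries (columns), as the difference in log2(CPM + 0.5) from the mean of control DMSO. Most pump subunits and hydrolases are red in all 9 senescent libraries, and CTSF and MITF are blue there. CTSS passes the end of the colour scale in these libraries, and ATP6V0D2 does so in every senescent library given an inhibitor.

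In senescence, 35 of the 50 members rose and 6 fell, while 32.5% of all genes tested rose and 36% fell. The median log2 fold change of the members was 0.71, against -0.05 over all genes tested. Of the classes of members, the proton pump moved most: 15 of its 16 members rose, among them all 8 subunits of V1, and none fell. Without ATP6V0D2 these counts were 34 of 49 members and 14 of 15 pump members, and the median was 0.69. Of the 26 hydrolases 17 rose and 4 fell. Of the 5 membrane proteins 2 rose and none fell. Calls rest on edgeR's quasi-likelihood test with Benjamini-Hochberg adjustment over all 14341 genes.

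Among the membrane proteins, MCOLN1, the calcium channel that signals from the lysosome, rose about as far as the median pump subunit. Its libraries read 22.7, 17.3 and 17.6 CPM in control DMSO cells and 37.1, 36.4 and 41.3 in senescent DMSO cells, with no overlap, and the log2 fold change was 1.00 ± 0.11 (SE; adjusted p = 9.82e-08). LAMP2, a glycoprotein of the lysosomal membrane also needed for chaperone-mediated autophagy, stood at 197, 180 and 174 CPM in control and 251, 246 and 212 in senescent cells, a change of 0.36 ± 0.10 on the log2 scale (adjusted p = 0.00336) that missed the threshold under upper quartile scaling. LAMP1, the other abundant membrane glycoprotein, read 385, 352 and 330 CPM in control and 383, 385 and 374 in senescent cells. Those groups overlapped, and its log2 fold change was 0.10 ± 0.084 (adjusted p = 0.305). SCARB2, the receptor that carries β-glucocerebrosidase to lysosomes, and CD63 did not pass either, with log2 fold changes of -0.02 and 0.15.

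The proteases held both the largest rise and the largest fall among the hydrolases. CTSS, a cathepsin of antigen-presenting cells that keeps activity at neutral pH, was low in control DMSO cells at 5.28, 7.00 and 7.56 CPM and reached 171, 169 and 174 CPM in senescent DMSO cells. That is a 25.9-fold difference, or 4.70 ± 0.14 on the log2 scale (adjusted p = 1.12e-16). Of the leukocyte and osteoclast markers, CD68 and DCSTAMP (0.057 CPM in control and 25.1 CPM in senescent DMSO cells) were higher in senescent cells. So were CSF1R (0.067 and 0.93 CPM) and ACP5 (1.43 and 2.97 CPM). CD14 averaged 0.41 and 0.37 CPM, LYZ 0.13 and 0.10 CPM, and PTPRC, the leukocyte common antigen, 0.057 and 0.18 CPM, and the part of these markers in the result was not tested.

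CTSB rose from 1470, 1490 and 1525 CPM to 5040, 4788 and 5003 CPM, a change of 1.73 ± 0.085 on the log2 scale (adjusted p = 2.96e-13). CTSF, a cysteine protease that differs from CTSB and CTSL in its long propeptide, went the other way. It fell from 57.9, 63.6 and 76.1 CPM to 18.6, 19.0 and 19.0 CPM, a change of -1.80 ± 0.13 on the log2 scale (adjusted p = 8.45e-11). CTSK, the collagen-degrading cathepsin, was the only other protease that fell, by 0.82 on the log2 scale, and CTSA, CTSD, CTSL, CTSZ and TPP1 rose, with log2 fold changes from 0.35 to 1.17.

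GLB1, whose β-galactosidase is the enzyme stained in senescent cells, read 87.7, 82.2 and 71.4 CPM in control DMSO cells and 146, 147 and 142 in senescent DMSO cells. The groups did not overlap, and the log2 fold change was 0.85 ± 0.092 (adjusted p = 7.19e-08). Of the other glycosidases, GLA, NEU1, MANBA and GAA rose, with log2 fold changes of 1.62, 1.47, 0.52 and 0.22, and the rise of GAA missed the threshold in 4 of the 6 fits that left out 1 library. GUSB, HEXA and NAGLU did not pass. FUCA1, which removes fucose, was the only glycosidase that fell. It was also the least abundant, at 2.98, 4.35 and 4.68 CPM in control and 2.16, 1.74 and 1.59 in senescent DMSO cells, a change of -1.12 ± 0.22 on the log2 scale (adjusted p = 0.00014).

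The sulfatase IDS, which starts the breakdown of dermatan and heparan sulfate, read 96.9, 85.7 and 78.3 CPM in control and 346, 347 and 326 in senescent DMSO cells. Its log2 fold change of 1.96 ± 0.11 (adjusted p = 1.46e-12) was the largest of a hydrolase after CTSS, but 75% of its exonic bases are shared with another annotated gene on the same strand. ARSA and ARSB also rose, by log2 fold changes of 0.36 and 0.85, and SGSH fell by 0.35. Of the lipid proteins, PSAP rose by a log2 fold change of 1.09 and the ceramidase ASAH1 by 0.33, a call that missed the threshold in 3 of 6 fits leaving out 1 library. LIPA, the acid lipase, and NPC2, which hands cholesterol on to NPC1, had values of 0.26 and 0.11 and did not pass.

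The 3 factors did not move together. MITF fell from 35.1, 30.2 and 30.2 CPM to 18.6, 17.4 and 16.8 CPM, a change of -0.86 ± 0.12 on the log2 scale (adjusted p = 1.41e-06). TFEB, the least abundant of them, stood at 6.69, 7.60 and 8.81 CPM in control and 6.17, 4.42 and 5.22 in senescent DMSO cells. Its log2 fold change of -0.54 ± 0.24 lay just past the threshold (adjusted p = 0.0487) and was lost with DESeq2 size factors and in 4 of 6 fits leaving out 1 library. TFE3 rose by a change of 0.48 ± 0.083 on the log2 scale (adjusted p = 3.44e-05).

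In the pump, ATP6V0D2 was close to absent from control DMSO cells, with 3, 0 and 1 counts, and had 78, 61 and 51 counts (4.82, 3.80 and 2.80 CPM) in senescent DMSO cells. Against the floor of 3 counts per library, averaged over the control libraries, it was at least 29.2-fold higher in senescence. It passed the filter on low counts through the senescent groups alone, so no p is given for senescence. The osteoclast gene DCSTAMP, also from the marker list, averaged 0.057 CPM in control and 25.1 CPM in senescent DMSO cells, and its relation to ATP6V0D2 was not tested.

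ATP6V0A1, the V0 subunit that anchors the pump's stator and forms the path of the protons, rose from 34.5, 31.1 and 27.5 CPM to 113, 116 and 109 CPM, a change of 1.86 ± 0.11 on the log2 scale (adjusted p = 9.69e-12). ATP6V0B, of the proton-carrying ring, rose from 61.3, 64.3 and 83.9 CPM to 180, 180 and 212 CPM, a change of 1.45 ± 0.10 on the log2 scale (adjusted p = 1.01e-10). Both subunits had senescent libraries well above every control library. ATP6V0C and ATP6V0D1 rose too (1.42 and 0.55), with 60.9% of the exonic bases of ATP6V0C shared with another gene on the same strand. ATP6V0E1 was the only pump member that did not rise, with a change of -0.20 ± 0.12 on the log2 scale (adjusted p = 0.133). The 8 V1 subunits lay in a narrow range, from 0.69 for ATP6V1A to 1.38 for ATP6V1B2, which carry the catalytic and nucleotide-binding sites, and the accessory proteins ATP6AP1 and ATP6AP2 rose by 1.37 and 0.26.

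Upper quartile scaling lowered the median of all genes tested in senescence by 0.15 on the log2 scale. Under it 29 members rose and 9 fell, the pump median was 0.78 in place of 0.94, the hydrolase median 0.28 in place of 0.44, and the median of the membrane proteins went from 0.15 to -0.013. The rises of LAMP2, CTSA, GAA, ARSA, ASAH1 and ATP6AP2 are those that at least 1 alternative ended, and 29 of the 35 rises held in all of them.

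**Figure D3:**
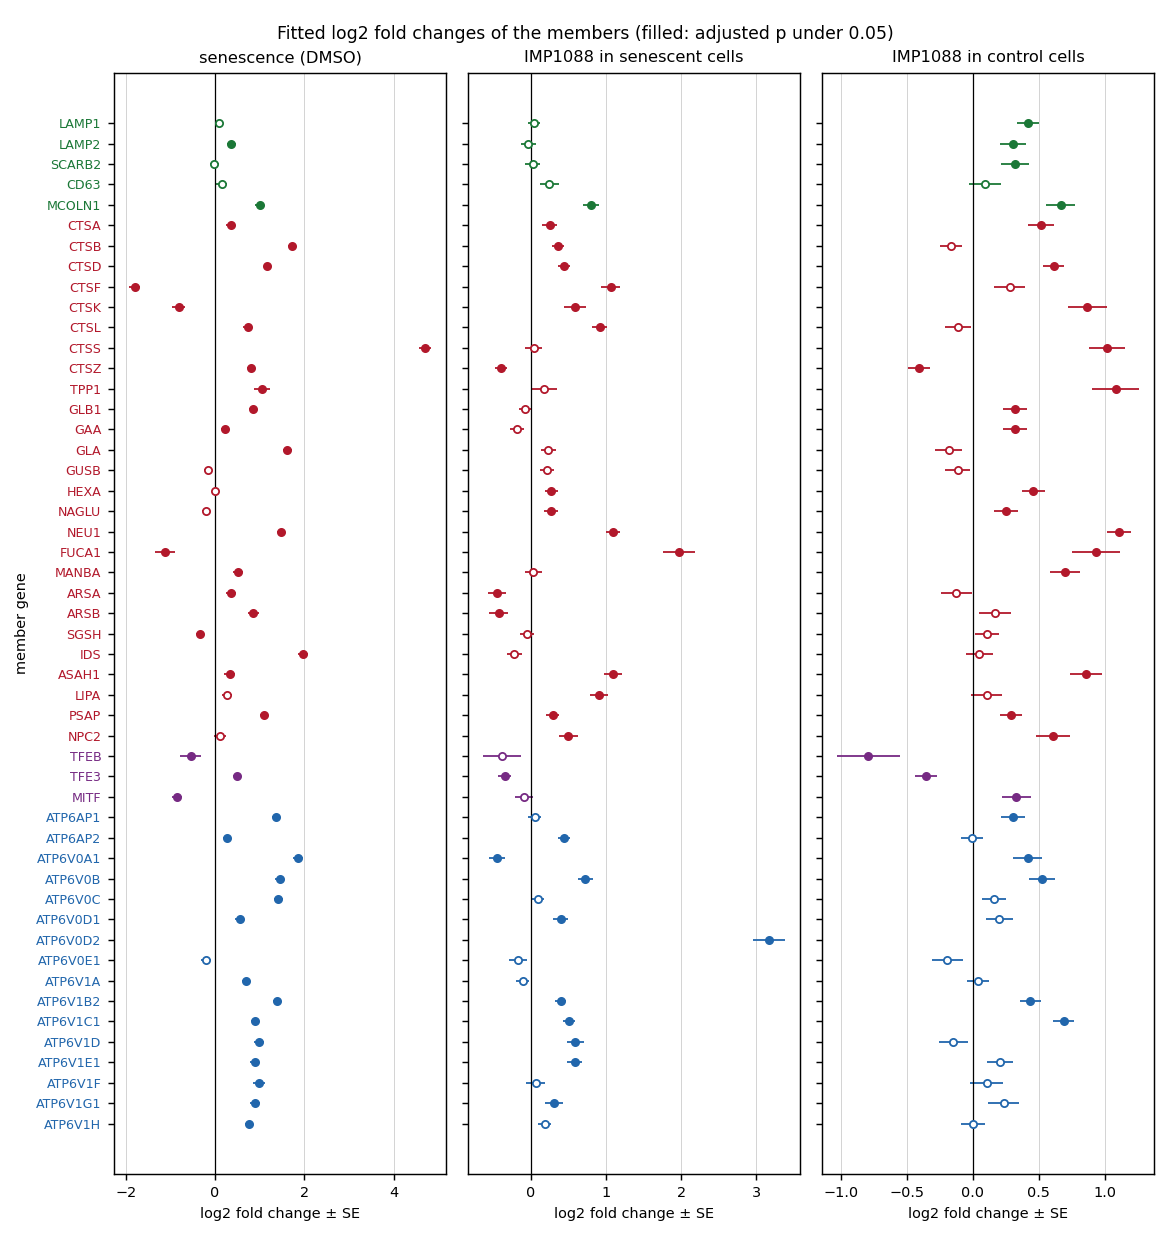
Fitted log2 fold change (points) with its SE (bars) of each member for senescence, IMP1088 in senescent cells and IMP1088 in control cells, coloured by class, filled where the adjusted p is under 0.05. ATP6V0D2 is drawn for IMP1088 in senescent cells alone, because control libraries held at most 3 counts of it.

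In control cells, IMP1088 raised 25 of the 50 members and lowered 3, while 16.3% of all genes tested rose and 17.4% fell. With DDD86481, 24 members rose and 4 fell, against 17.8% and 18.7% of all genes. The median log2 fold changes of the members were 0.27 with IMP1088 and 0.24 with DDD86481, against -0.0011 and 0 over all genes tested. Both inhibitors were set against the same control DMSO libraries and were given at different doses, so their values are placed side by side without a test between them. With IMP1088, 15 of 26 hydrolases, 4 of 5 membrane proteins and 5 of 16 pump members rose, and with DDD86481 15, 3 and 5. In a fit of only the groups compared, 19 members were called for IMP1088 and 17 for DDD86481. Of the rises in control cells, 16 of 25 with IMP1088 and 16 of 24 with DDD86481 held in every alternative, and of the falls 2 of 3 and 0 of 4.

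LAMP1 read 487, 470 and 468 CPM with IMP1088 and 481, 473 and 474 with DDD86481, all above the 330 to 385 CPM of control DMSO. Its log2 fold change was 0.42 ± 0.084 with either inhibitor (adjusted p = 0.000734 and 0.000643). MCOLN1 rose to 33.0, 29.0 and 29.5 CPM with IMP1088, a change of 0.67 ± 0.11 on the log2 scale (adjusted p = 0.000104), and to 28.9, 29.2 and 31.5 CPM with DDD86481, a change of 0.64 ± 0.11 on the log2 scale (adjusted p = 0.000166).

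NEU1, the lysosomal sialidase, had the largest rise of a member with IMP1088 in control cells. It read 106, 92.0 and 93.5 CPM with IMP1088 against 48.2, 41.3 and 45.3 with DMSO, a change of 1.11 ± 0.090 on the log2 scale (adjusted p = 1.94e-08), and the value with DDD86481 was 1.05 ± 0.090. TPP1, a peptidase lost in a childhood form of neuronal ceroid lipofuscinosis, and CTSS followed, with log2 fold changes of 1.09 ± 0.18 and 1.01 ± 0.14 with IMP1088 and 1.04 ± 0.18 and 1.08 ± 0.14 with DDD86481. TPP1 spread widely over the control DMSO libraries, at 119, 86.3 and 60.01 CPM, and each IMP1088 library, at 212, 186 and 165 CPM, lay above them. FUCA1 rose by 0.93 ± 0.18 and 0.80 ± 0.19, CTSK by 0.87 ± 0.15 and 0.79 ± 0.15, and ASAH1 by 0.86 ± 0.12 and 0.77 ± 0.12 on the log2 scale, with IMP1088 and DDD86481 in that order.

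GLB1 read 104, 98.6 and 98.4 CPM with IMP1088 in control cells, a change of 0.32 ± 0.092 on the log2 scale (adjusted p = 0.011), and 0.30 ± 0.092 (adjusted p = 0.0145) with DDD86481. Both calls were lost in the fit of only the groups compared. CTSB, CTSL and LIPA did not pass in control cells with either inhibitor, and of the sulfatases none did. CTSZ fell with both, by 0.41 and 0.37, the latter call lost with a replicate block in the fit of only the groups compared. GLA fell with DDD86481, by 0.29 (adjusted p = 0.0422), a call lost when control DMSO replicate 3 was left out, where the log2 fold change was -0.13 (adjusted p = 0.313).

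TFEB fell in control cells, from 6.69, 7.60 and 8.81 CPM to 4.57, 5.21 and 3.50 with IMP1088 and 4.17, 6.67 and 2.66 with DDD86481. Its log2 changes amounted to -0.79 ± 0.24 (adjusted p = 0.014) and -0.78 ± 0.24 (adjusted p = 0.0145), and the call was lost when inhibitor replicate 3 was left out, with -0.64 (adjusted p = 0.0792) for IMP1088 and -0.50 (adjusted p = 0.105) for DDD86481. TFE3 fell by 0.36 and 0.27, and MITF rose by 0.33 and 0.31, the calls of MITF lost in 4 of 6 fits leaving out 1 library and that of TFE3 with DDD86481 in 1 of 6. The pump members that rose with both inhibitors were ATP6AP1, ATP6V0A1, ATP6V0B, ATP6V1B2 and ATP6V1C1, with log2 fold changes of 0.30 to 0.69 for IMP1088. At least 1 alternative ended the rises of ATP6AP1 and ATP6V0A1 with IMP1088 and of ATP6AP1 and ATP6V0B with DDD86481. ATP6V0D2 stayed between 0 and 3 counts in each of the 9 control libraries, so no fold is given. When control DMSO replicate 3 was left out, CD63, CTSF, ATP6V0C, ATP6V0D1, ATP6V1E1 and ATP6V1G1 also rose past the threshold with both inhibitors, while LAMP2, SCARB2 and MITF no longer passed with IMP1088, nor GLB1, GAA, GLA and MITF with DDD86481.

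In senescent cells, IMP1088 raised 24 members and lowered 5, while 20.6% of all genes tested rose and 23.9% fell. With DDD86481, 25 rose and 3 fell, against 20.1% and 23.1% of all genes. The median log2 fold changes were 0.24 and 0.26, against -0.04 over all genes for both. All 4 lipid proteins rose with either inhibitor, 9 pump members rose with IMP1088 and 10 with DDD86481, and of the 5 membrane proteins MCOLN1 alone rose. The members summed to 19964 ± 656 CPM with IMP1088 and 19798 ± 373 with DDD86481 (SD, n = 3), against 16233 ± 281 with DMSO.

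ATP6V0D2 showed the largest change of any member. From 4.82, 3.80 and 2.80 CPM with DMSO it reached 37.4, 32.4 and 32.8 CPM with IMP1088 and 23.0, 27.6 and 33.2 CPM with DDD86481. The inhibitor libraries lay far above the DMSO libraries, with a 9.02-fold rise for IMP1088 (log2 3.17 ± 0.21, adjusted p = 7.82e-10) and a 7.36-fold rise for DDD86481 (log2 2.88 ± 0.21, adjusted p = 3.22e-09). Of its exonic bases 17.1% overlap a long non-coding RNA on the other strand. ACP5, the acid phosphatase that marks osteoclasts, averaged 2.97 ± 1.27 CPM with DMSO and 38.0 ± 13.1 with IMP1088 in the same cells, whereas DCSTAMP averaged 25.1 ± 1.89 and 19.0 ± 2.57 CPM, and their part in the result was not tested.

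ATP6V0B rose to 305, 329 and 311 CPM with IMP1088 from 180, 180 and 212 with DMSO, a change of 0.72 ± 0.10 on the log2 scale (adjusted p = 7.41e-06). ATP6V1D, of the pump's central rotor, rose to 233, 240 and 242 CPM from 152, 164 and 159, a change of 0.59 ± 0.11 on the log2 scale (adjusted p = 0.000202). With DDD86481 the log2 fold changes were 0.71 ± 0.10 and 0.60 ± 0.11, and for both genes the groups did not overlap. ATP6V0A1 was the exception in the pump. It fell from 113, 116 and 109 CPM to 78.3, 87.0 and 80.9 with IMP1088, a change of -0.45 ± 0.11 on the log2 scale (adjusted p = 0.00197), and read 78.7, 96.4 and 108 CPM with DDD86481, where the log2 fold change of -0.25 ± 0.11 did not pass (adjusted p = 0.0645).

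FUCA1, which senescence had lowered, had the largest rise of a hydrolase. It read 7.10, 7.04 and 7.29 CPM with IMP1088 and 4.15, 7.21 and 6.13 with DDD86481, against 1.59 to 2.16 with DMSO, with log2 fold changes of 1.96 ± 0.21 (adjusted p = 3.76e-07) and 1.67 ± 0.22 (adjusted p = 3.66e-06). CTSF, the other strong fall of senescence, also rose. Its libraries read 42.5, 38.3 and 37.4 CPM with IMP1088 and 50.1, 36.6 and 36.5 with DDD86481 against 18.6 to 19.0 with DMSO, log2 fold changes of 1.06 ± 0.13 (adjusted p = 1.19e-06) and 1.12 ± 0.13 (adjusted p = 6.41e-07). The levels of CTSF with either inhibitor remained below the 57.9 to 76.1 CPM of control DMSO cells.

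ASAH1, which cleaves ceramide, rose to 277, 270 and 263 CPM with IMP1088 from 136, 129 and 114, a change of 1.10 ± 0.12 on the log2 scale (adjusted p = 4.83e-07). NEU1 rose to 263, 265 and 268 CPM from 127, 116 and 130, a change of 1.09 ± 0.088 on the log2 scale (adjusted p = 8.8e-09). The rises of ASAH1 and NEU1 with DDD86481 were both 1.14. CTSL, the endopeptidase that also processes other cathepsins, rose to 432, 421 and 375 CPM from 229, 205 and 218, and the log2 fold changes were 0.91 ± 0.10 with IMP1088 (adjusted p = 4.02e-07) and 0.88 ± 0.10 with DDD86481 (adjusted p = 7.22e-07).

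MCOLN1 rose to 61.6, 69.6 and 68.9 CPM from 37.1, 36.4 and 41.3, a change of 0.80 ± 0.11 on the log2 scale (adjusted p = 5.13e-06), and DDD86481 gave 0.84 ± 0.11. LAMP1, at 385, 402 and 389 CPM with IMP1088, had a change of 0.04 ± 0.084 on the log2 scale (adjusted p = 0.713) and with DDD86481 one of 0.01 ± 0.084. GLB1 read 141, 139 and 133 CPM with IMP1088 and 114, 134 and 143 with DDD86481, with log2 fold changes of -0.07 ± 0.091 (adjusted p = 0.538) and -0.16 ± 0.091 (adjusted p = 0.178).

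The falls with IMP1088 in senescent cells were those of CTSZ, ARSA, ARSB, TFE3 and ATP6V0A1. TFE3 fell from 200, 200 and 223 CPM to 162, 165 and 161, a change of -0.35 ± 0.083 on the log2 scale (adjusted p = 0.00181), and ARSB, which acts on dermatan sulfate, fell with both inhibitors, by 0.43 and 0.45. TFEB, at 3.79, 3.52 and 4.82 CPM with IMP1088, had a log2 fold change of -0.38 ± 0.25 and did not pass (adjusted p = 0.235). Of the 24 rises with IMP1088, 20 held in every alternative, and those of CTSA, HEXA, NAGLU and ATP6V1G1 did not. With DDD86481, 20 of the 25 rises held, and those of CTSB, HEXA, NPC2, ATP6V1G1 and ATP6V1H did not. CTSA lay at the threshold (log2 0.25, adjusted p = 0.0491) and was lost whichever library was left out.

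**Figure D4:**
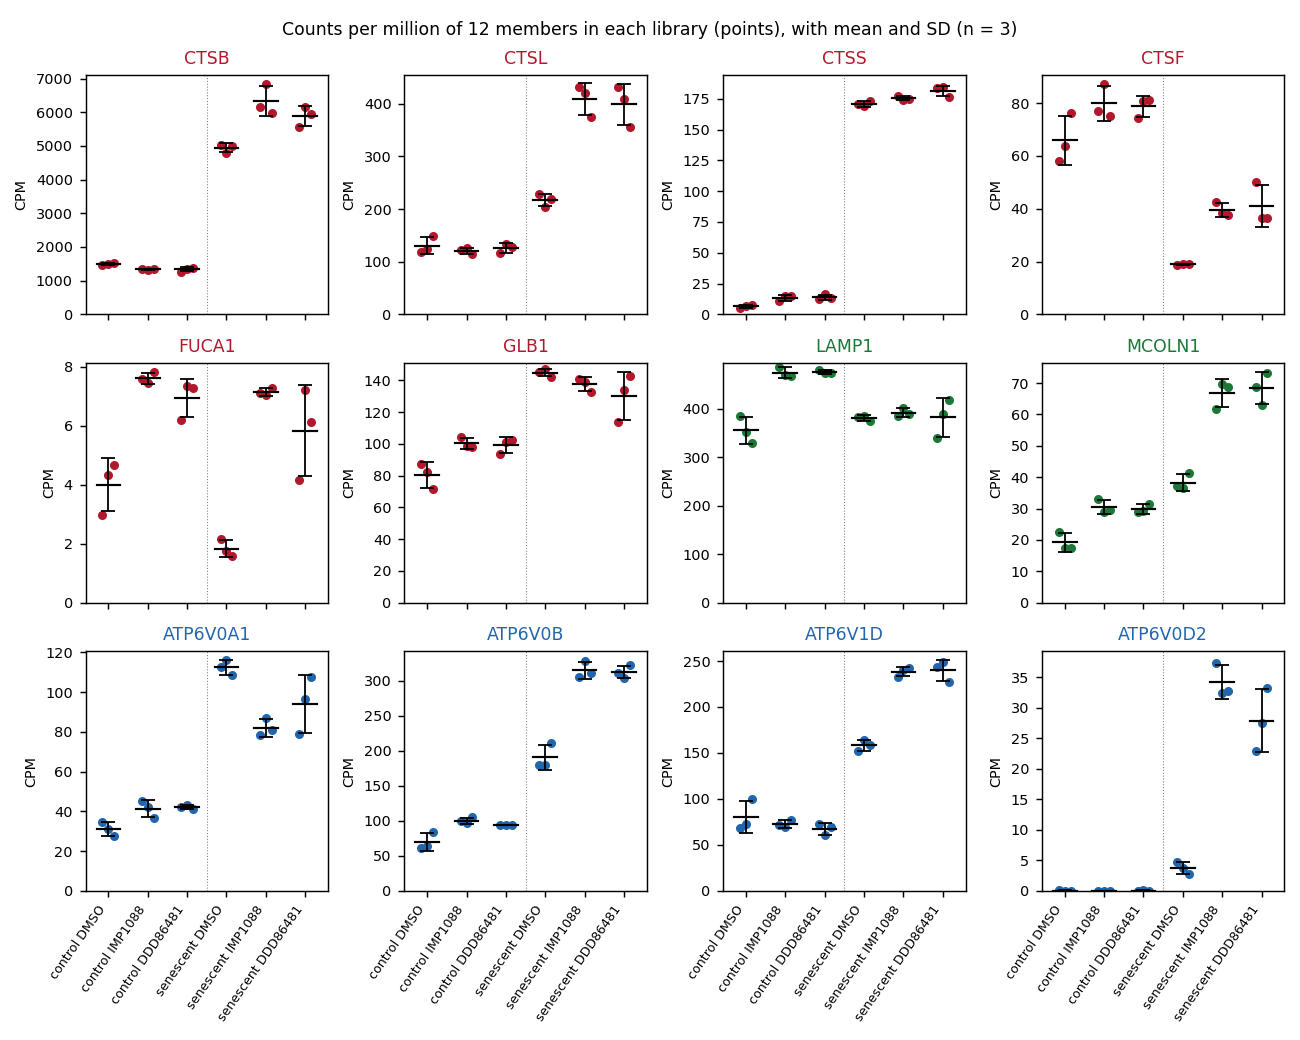
CPM of 12 members in each library (points) with the mean and SD of each group (lines, n = 3), control groups left and senescent groups right of the dotted line, each panel starting at 0. CTSS and CTSB separate senescent from control cells, CTSL, CTSF, FUCA1, ATP6V1D and ATP6V0D2 separate inhibitor from DMSO in senescent cells, and LAMP1 separates them in control cells.

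The effects of IMP1088 in control and in senescent cells share no library, so their calls can be set against each other. Of the members that rose, 14 rose in both states, which is 58.3% of the 24 in senescent cells and 56% of the 25 in control cells. They were MCOLN1, CTSA, CTSD, CTSK, HEXA, NAGLU, NEU1, FUCA1, ASAH1, PSAP, NPC2, ATP6V0B, ATP6V1B2 and ATP6V1C1. CTSZ and TFE3 fell in both. With DDD86481 the shared rises were 13, or 52% and 54.2%. Over all genes tested the rises shared by both states were 38.8% of those in senescent cells and 49% of those in control cells with IMP1088, and 38.3% and 43.1% with DDD86481.

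Whether an inhibitor acted differently in the 2 states was tested as an interaction, the change in senescent cells less the change in control cells, on the log2 scale. For IMP1088 it was positive and past the threshold for 9 members and negative for 8, against 12.1% and 14.2% of all genes tested. For DDD86481 it was 9 and 11 members, against 14.4% and 15.9%. Called members made up 18% and 16% of the 50 for IMP1088 and 18% and 22% for DDD86481, and the median interaction of the members was -0.03 and 0.02. The count for IMP1088 includes ATP6V0D2, without which 8 were positive and 8 negative.

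FUCA1 and CTSL had the largest positive interactions with IMP1088 among members counted in both states. FUCA1 gained 1.03 ± 0.28 (adjusted p = 0.0114) more in senescent than in control cells, and its level with IMP1088 came to 7.04 to 7.29 CPM in senescent and 7.44 to 7.82 in control cells, from unequal levels with DMSO. CTSL gained 1.03 ± 0.14 (adjusted p = 3.22e-05), with 122, 125 and 115 CPM in control cells with IMP1088 against 119, 124 and 149 with DMSO, a difference in control cells that did not pass. The fitted interaction of ATP6V0D2, with almost no counts in control cells, depends on the prior count of the fit, and no value or p is given for it. The interaction of FUCA1 with DDD86481 was lost in 5 of 12 fits leaving out 1 library. CTSB, CTSF, LIPA, ATP6AP2 and ATP6V1D also had positive interactions with both inhibitors, from 0.42 to 0.86, and so did GLA, whose value for IMP1088 was lost in 7 of 12 such fits.

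CTSS, TPP1, ATP6V0A1 and MANBA, which removes mannose, had the strongest negative interactions. CTSS rose with IMP1088 in control cells to 10.6, 14.7 and 14.6 CPM but read 177, 174 and 175 CPM in senescent cells against 171, 169 and 174 with DMSO, an interaction of -0.98 ± 0.18 (adjusted p = 0.000555). With DDD86481 the interactions were -0.99 ± 0.18 for CTSS (adjusted p = 0.000475), -0.99 ± 0.25 for TPP1 (adjusted p = 0.00621) and 0.93 ± 0.14 for CTSL (adjusted p = 9.26e-05). ATP6V0A1 rose in control cells to 45.3, 42.4 and 36.7 CPM with IMP1088 and fell in senescent cells, an interaction of -0.87 ± 0.16 (adjusted p = 0.000483). LAMP1 and GLB1 had interactions of -0.37 and -0.39 with IMP1088, lost in 8 and 9 of 12 fits leaving out 1 library, and TFEB one of 0.41 ± 0.35 that did not pass (adjusted p = 0.404).

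**Figure D5:**
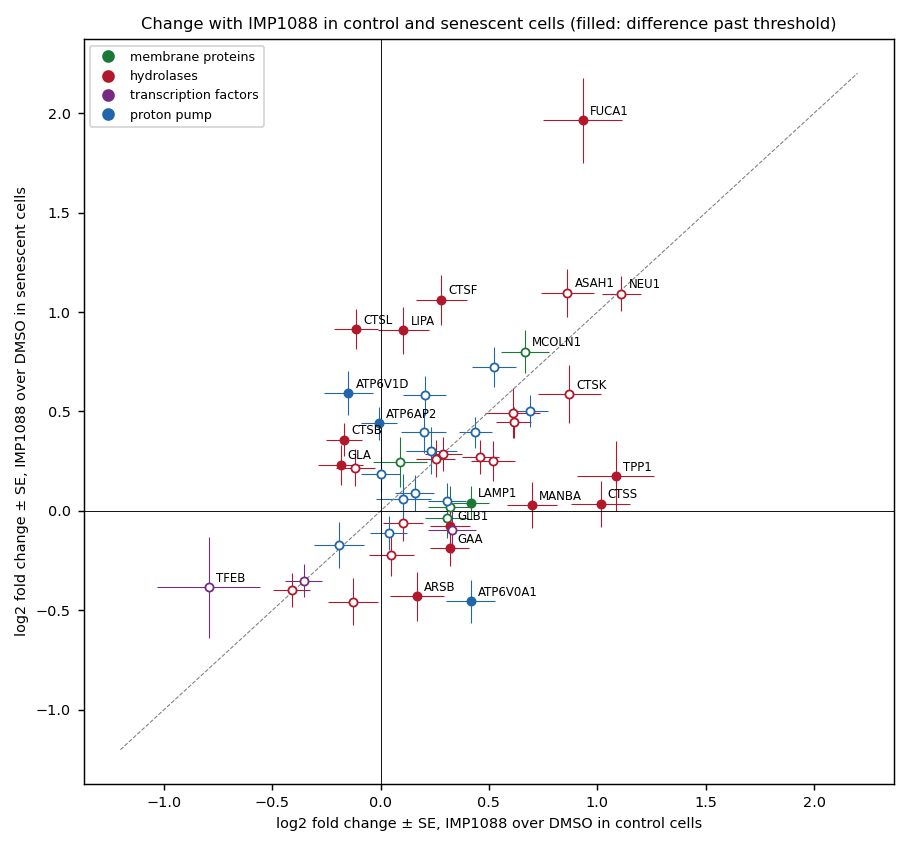
Log2 fold change with IMP1088 in control cells (x axis) and in senescent cells (y axis) with SE bars, coloured by class and filled where the interaction passed, without ATP6V0D2. CTSL, LIPA, CTSF and FUCA1 lie above the dashed line of equal change, CTSS, TPP1, MANBA and ATP6V0A1 lie below it, and NEU1, with 1.11 and 1.09, lies on it.

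The 11 members whose promoter windows hold the 7 letters were all on the positive side in control cells with IMP1088, 7 of them past the threshold, with a median log2 fold change of 0.42 and values from 0.17 to 1.11. The 22 members whose windows hold no match had 8 rises and 3 falls and a median of 0.10. The 17 members without a window had 10 rises, no falls and a median of 0.29. Of all genes tested 16.3% rose and 17.4% fell. With DDD86481 in control cells the medians were 0.42 and 0.11. In senescent cells with IMP1088, 8 of the 11 rose and ARSB fell, with a median of 0.40 against 0.13 for windows without a match. Members without a window had 9 rises, 1 fall and a median of 0.26 there, and 20.6% of all genes tested rose and 23.9% fell. In senescence itself the medians lay closer, at 0.85 and 0.77, and CTSF, whose window holds a match, had the largest fall of any member. These groups are small, the 17 members without a window are in neither, and no test was run.

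A further 91 lysosomal genes were listed, of which 87 were tested. In senescence 44 rose and 22 fell (median log2 fold change 0.36), or 50.6% and 25.3% of the 87, against 32.5% and 36% of all genes tested. The order of the classes differed from that of the members. Of 9 other pump subunits tested 2 rose and 1 fell (median 0.052). Of 22 other membrane proteins, channels and exporters 12 rose and 6 fell (median 0.61). With IMP1088 34 rose and 13 fell in senescent cells (39.1% and 14.9%, against 20.6% and 23.9%). In control cells 26 rose and 8 fell with IMP1088 (29.9% and 9.2%, against 16.3% and 17.4%). With DDD86481 the counts were 34 and 9 in senescent and 27 and 7 in control cells, or 39.1%, 10.3%, 31% and 8.05%, against 20.1%, 23.1%, 17.8% and 18.7% of all genes. LAPTM5, a lysosomal membrane protein of blood cells, and RRAGD, a GTPase that tethers mTORC1 to lysosomes, were at least 47.8-fold and 14.4-fold higher in senescence, each with at most 3 counts per control DMSO library. The counts of rises and falls above were not redone without genes at the floor in a group compared. CTSC, the dipeptidyl peptidase that activates granule proteases, fell from 343 ± 25.8 CPM to 104 ± 1.10 in senescence and to 56.4 ± 3.55 with IMP1088 (SD, n = 3), log2 fold changes of -1.72 ± 0.088 (adjusted p = 5.52e-13) and -0.89 ± 0.088 (adjusted p = 1.12e-07). ATP6V1G2, a neuronal form of the G subunit, fell in senescence from 3.41 to 0.78 CPM. With IMP1088 in senescent cells ACP5 had the largest well-counted rise (log2 3.69 ± 0.29, adjusted p = 5.2e-09), and RNASET2, the acid ribonuclease, fell by 0.70 ± 0.16 on the log2 scale (adjusted p = 0.00128). LAMP3 averaged 0.45 CPM with IMP1088 against at most 1 count per DMSO library, and no call is given for it.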

How the data were processed

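Poly(A) RNA of 18 bulk samples was sequenced, and the authors deposited the raw read counts of all libraries in 1 table of gene symbols. The study's methods name a strand-marking library kit, TopHat with a first-strand setting, hg19 and Ensembl annotation, and its software list HTSeq, whereas the submitters' processing notes name hg38, STAR 2.7.8a, DRAGEN and DESeq2 1.32.0. As these sources differ, the aligner, annotation and strand setting behind the deposited counts are not settled, and counts of genes that overlap a neighbour are uncertain. Of the members, CTSA, CTSD, CTSZ, TPP1, HEXA, NAGLU, IDS, ATP6V0C, ATP6V0D2 and ATP6V1F share at least 10% of their exonic bases with another gene (GENCODE annotation on GRCh37, used for lengths and overlaps only).

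Groups came from the labels. Counts were filtered with filterByExpr, which kept 14341 genes with 99.96% of counts, scaled by TMM and tested with the quasi-likelihood test of edgeR 4.0.16 (R 4.3.3) in 1 fit of 18 libraries and 6 groups with 12 residual degrees of freedom. P-values were adjusted by Benjamini-Hochberg over all genes tested, with a threshold of 0.05. SE were derived from the F statistic. CPM used TMM library sizes. A prior count of 2 entered log2 CPM values only, and the fitted log2 fold changes kept edgeR's default prior count. The script was tested on simulated data. No members were dropped. Alternatives were DESeq2 size factors, the Wald test of DESeq2 1.42.0, upper quartile scaling, no filter, fits of only the groups compared, a block for the replicate number, and leaving out each library. Deviations from group means correlated between same-numbered libraries of control DMSO and control IMP1088 (r = 0.394, 0.123 and 0.231 across genes). In the other comparisons these correlations were also positive, from 0.0067 to 0.17. Whether the numbers pair libraries was not tested, and reported calls come from the fit without a block. Adding the block changed no member's call for IMP1088 in control cells in the fit of 6 groups.

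The members, lists and tests were chosen with earlier results of these data known. Values in every library are given for the 4 hydrolases, 2 membrane proteins, 2 factors and 3 pump subunits with the largest change past the threshold for senescence and for IMP1088 in senescent cells, for the first 3 members of each interaction, and for GLB1, LAMP1 and TFEB. Other lysosomal genes named were the first 2 in each direction. Other members are named where a count or range needs them.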

Additional observations from a re-analysis of the deposited data

Results flagged for a closer look

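The effect of an inhibitor in senescent cells differed from that in control cells, by the interaction test of edgeR with adjusted p under 0.05, for 16 members with IMP1088 and 20 with DDD86481, ATP6V0D2 left aside. These are 32.7% and 40.8% of the other 49 members, against 26.2% and 30.3% of all genes tested. Values are log2 fold changes in senescent cells minus those in control cells. With IMP1088 the positive ones among hydrolases were 1.03 for FUCA1, 1.03 for CTSL, 0.80 for LIPA, 0.78 for CTSF, 0.52 for CTSB and 0.42 for GLA. In the pump they were 0.74 for ATP6V1D and 0.45 for ATP6AP2. ATP6V0D2 held at most 3 counts in each control library and is not listed. The negative ones with IMP1088 were -0.98 for CTSS, -0.91 for TPP1, -0.67 for MANBA, -0.60 for ARSB, -0.51 for GAA, -0.39 for GLB1, -0.37 for LAMP1 and -0.87 for ATP6V0A1. At least 1 alternative ended the calls of GLA, LAMP1, GLB1 and ARSB.

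With DDD86481 the positive ones were 0.93 for CTSL, 0.87 for FUCA1, 0.86 for CTSF, 0.73 for LIPA, 0.71 for GLA and 0.42 for CTSB, and in the pump 0.85 for ATP6V1D, 0.47 for ATP6AP2 and 0.46 for ATP6V1E1. The negative ones were -0.99 for CTSS, -0.99 for TPP1, -0.71 for MANBA, -0.64 for ARSB, -0.52 for GAA, -0.46 for GLB1, -0.41 for LAMP1, -0.40 for CTSA, -0.60 for MITF, -0.69 for ATP6V0A1 and -0.33 for ATP6AP1. Of these, at least 1 alternative ended the calls of FUCA1, CTSA, GLB1, ATP6AP1, LAMP1 and ARSB. Both inhibitors were compared with the same DMSO libraries, so the lists are not independent of each other. No cause was tested.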

How the results depend on the processing

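No call changed sign under any alternative. The number of members called was within 1.5 times the reported one in every alternative except DDD86481 in control cells, where 28 became 17 in a fit of only the groups compared and 18 with the replicate block in that fit. The cause was not tested. Upper quartile scaling moved the senescence medians of hydrolases to 0.28, of membrane proteins to -0.013 and of the pump to 0.78, and it shifted the median of all genes there by -0.15. Leaving out 1 library gave 39 to 40 called members for senescence, 25 to 26 for IMP1088 and 25 to 30 for DDD86481 in senescent cells, and 22 to 31 for either inhibitor in control cells. Interactions ranged from 13 to 20 calls for IMP1088 and from 17 to 27 for DDD86481, with the highest counts when control DMSO replicate 1 was left out. The median of the membrane proteins in senescence then ranged from 0.058 to 0.32 and that of the pump from 0.86 to 1.11, with the highest values without control DMSO replicate 3. In control cells the pump median ranged from 0.13 to 0.27 with IMP1088 and from 0.095 to 0.26 with DDD86481. For the interaction with IMP1088 the membrane proteins ranged from -0.36 to -0.16 and the pump from -0.067 to 0.19, and for that with DDD86481 the hydrolases ranged from -0.070 to 0.080 and the pump from 0.082 to 0.34. The replicate block in the fit of 6 groups gave 40, 28, 29, 28 and 29 called members, in the order senescence, IMP1088 and DDD86481 in senescent cells, IMP1088 and DDD86481 in control cells, and 18 and 21 for the interactions. Apart from IMP1088 in control cells, correlations between the deviations of same-numbered libraries were positive and ranged from 0.0067 to 0.17. Genes with few counts, such as TFEB, FUCA1 and ATP6V0D2 in control cells, had the largest SE, and depth limits what can be said of them.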

Other observations

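Values of 3 lysosomal genes outside the 50 members, chosen after their values were seen, are added here. NPC1, the cholesterol exporter of the lysosomal membrane, averaged 10.6 ± 4.58 CPM in control DMSO and 146 ± 8.85 in senescent DMSO cells (SD, n = 3), a log2 fold change of 3.76 ± 0.22 (edgeR, adjusted p = 5.98e-12), and rose further with IMP1088 to 246 ± 8.01 CPM in senescent and 28.2 ± 5.26 in control cells. ATP6V0A2, the a2 form of the V0 subunit of which ATP6V0A1 is the a1 form, was at 30.8 ± 4.93 CPM in control and 28.9 ± 1.52 in senescent DMSO cells and rose with IMP1088 in both, by log2 fold changes of 0.78 ± 0.13 in control and 0.98 ± 0.13 in senescent cells (adjusted p = 9.22e-05 and 3.92e-06). FLCN, a GTPase activator for RRAGC and RRAGD, rose with IMP1088 in control cells by 0.78 ± 0.14 (adjusted p = 0.000321) and had -0.07 ± 0.15 in senescent cells (adjusted p = 0.716), an interaction of -0.85 ± 0.20 (adjusted p = 0.00482).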
